A study of Homo sapiens with 9 samples.

Results

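The urea cycle genes are the enzymes that turn ammonia into urea, together with the carrier that moves ornithine into mitochondria. The 8 genes NAGS, CPS1, OTC, SLC25A15, ASS1, ASL, ARG1 and ARG2 were taken by gene name from the deposited expression table, 8 rows of 27421. Of the 6 that passed the filter on low values, ARG1 had the largest log2 difference from the control in each arm over all 9 libraries. That did not hold in shZMAT2-2 once 1 control library that stood apart was left out. The arm and the share of mitochondrial RNA could then not be told apart. ARG1 averaged 5.37 ± 0.828 FPKM in shZMAT2-1 libraries and 5.73 ± 0.563 FPKM in shZMAT2-2 libraries, against 10.1 ± 1.43 FPKM in control libraries (SD, n = 3 each). The difference did not pass the multiple-testing threshold on the values as deposited. The study asked whether ZMAT2, a zinc finger protein of the spliceosome, acts on hepatocellular carcinoma through mRNA splicing, and all 9 libraries come from Huh7, an established hepatocellular carcinoma line. They form 3 groups of 3: the arm labelled shZMAT2-1, the arm labelled shZMAT2-2, and a control. Hairpin sequences, the kind of control, days of culture and whether a group is 1 clone or a pool are not stated in the labels. FPKM counts fragments per kilobase and is scaled to library depth, so levels of different genes can be set side by side per length, but isoforms cannot be told apart.

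The urea cycle begins in mitochondria. NAGS makes N-acetylglutamate, the activator that CPS1 needs to join ammonia and bicarbonate into carbamoyl phosphate, and OTC transfers that group to ornithine brought in by the carrier SLC25A15. In the cytosol ASS1 joins the resulting citrulline to aspartate, ASL splits the product into arginine and fumarate, and ARG1 releases urea and returns ornithine. ARG2 is the mitochondrial arginase, found in many tissues outside the liver. The full cycle is a hallmark of periportal hepatocytes, and tumours of the liver often lose part of it.

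Library depth, recovered from the values, ranged between 18430000 and 23740000 fragments; for a transcript of 1 kb, 3 fragments come to between 0.126 and 0.163 FPKM. The 13 genes encoded in the mitochondrial genome took 8.25%, 16.4% and 7.70% of fragments in shZMAT2-1, 27.0%, 14.5% and 16.6% in shZMAT2-2, and 7.86%, 43.2% and 8.28% in the control. Control replicate 2 therefore stood apart, and values without it are given for the 6 tested urea cycle genes and for the other genes whose differences from the control are described. ZMAT2 itself read 15.2, 12.8 and 13.2 FPKM in shZMAT2-1 and 22.1, 20.3 and 20.8 FPKM in shZMAT2-2, against 37.5, 32.8 and 39.2 FPKM in the control. It fell in shZMAT2-1 (log2 fold change -1.35, limma adjusted p = 0.0283) and in the mean of both arms (-1.06, adjusted p = 0.0144), while shZMAT2-2 alone gave -0.76 (adjusted p = 0.113). Without control replicate 2 these were -1.42, -1.13 and, in shZMAT2-2, -0.84 (adjusted p of 0.00767, 0.00445 and 0.0158). All 10 hepatocyte and hepatocellular carcinoma markers averaged at least 1 FPKM over the 9 libraries, led by ALB at a mean of 2105 FPKM, and their summed level was 5016 to 6121 FPKM in shZMAT2-1, 4361 to 5120 FPKM in shZMAT2-2 and 3433 to 6205 FPKM in the control. Of the markers of other cells, LYZ, VIL1, CD14 and S100A9 were the highest, and no other was above 2.31 FPKM in any library. Summed levels of the leukocyte list were 66.1 to 77.9, 47.5 to 65.6 and 56.8 to 136 FPKM in shZMAT2-1, shZMAT2-2 and control libraries, most of it LYZ, with CD14 at 4.45 to 8.74, 3.87 to 6.95 and 2.47 to 5.60 FPKM, while PTPRC stayed at or below 0.0236 FPKM. The kidney and gut list gave 26.6 to 32.8, 20.0 to 29.1 and 9.18 to 23.1 FPKM in the same order, carried by VIL1. Endothelial markers summed to 0.695 to 1.70 FPKM, fibroblast markers to 1.54 to 3.93 FPKM and the red cell list to at most 0.0239 FPKM over all 9 libraries.

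The start regions of both arginase genes are shown because their RNA levels ran differently across the libraries, as described further on. Each window covers 250 bases before to 50 bases after the RefSeq start on GRCh38.p14, plus strand, with motif matches in capitals. In ARG1 (chr6:131572976-131573275) these mark a TATA box at 29 bases upstream. In ARG2 (chr14:67619670-67619969) they mark GC boxes, CCAAT boxes (read as ATTGG on the other strand) and cAMP response elements.
ARG1: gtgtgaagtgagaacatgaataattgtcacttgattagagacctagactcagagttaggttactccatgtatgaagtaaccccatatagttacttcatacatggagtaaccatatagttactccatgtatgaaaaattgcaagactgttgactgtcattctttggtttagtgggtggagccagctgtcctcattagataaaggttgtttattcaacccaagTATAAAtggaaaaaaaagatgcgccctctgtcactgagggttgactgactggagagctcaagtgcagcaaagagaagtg
ARG2: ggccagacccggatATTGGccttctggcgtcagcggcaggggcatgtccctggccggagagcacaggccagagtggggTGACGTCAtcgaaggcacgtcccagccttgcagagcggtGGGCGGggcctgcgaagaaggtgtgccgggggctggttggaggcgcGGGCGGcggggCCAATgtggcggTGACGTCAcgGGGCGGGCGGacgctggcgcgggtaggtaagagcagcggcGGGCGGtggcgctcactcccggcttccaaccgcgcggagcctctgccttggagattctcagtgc
Motifs were searched on both strands, and the share of all 35116 RefSeq windows of this length that held each was also counted. The TATA box, written as TATAAA, was found in 11.5% of windows and the CCAAT box in 34.6%. The GC box, written as GGGCGG, was found in 45%, and a C/EBP pattern, TTNNGNAA, in 36.8%. An HNF4A pattern, CAAAGTCCA, was found in 0.384%, and the cAMP response element TGACGTCA in 1.85%. The ARG1 window held 1 match in all, with 40% G and C bases and 1 CpG. The ARG2 window held 5 GC boxes, of which the pair at 54 and 50 bases upstream overlap, plus 2 CCAAT boxes and 2 cAMP response elements, with 71% G and C bases and 31 CpGs. Across the 11 windows of the 8 genes, ASL, ASS1, SLC25A15 and NAGS resembled ARG2, with 64.3% to 80% G and C bases and a GC box in every window. The windows of OTC and CPS1 resembled ARG1 in base composition, with 36.7% to 45.3% G and C bases, and in holding no GC box. Their other motifs differed, as every OTC and CPS1 window held a C/EBP match and ARG1 held none. The TATA box was absent from the CPS1 windows and lay 192 bases upstream in OTC. The median over all windows was 58.7%. A match is a description of the letters and not of binding.

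Set side by side per length, the order of levels was similar in the 3 groups apart from ARG1 and NAGS. ASS1 and SLC25A15 were highest, at group means of 9.27 to 15.4 FPKM, and 75.0% and 72.5% of the 11245 tested genes had a lower mean over all 9 libraries. ASL, ARG1, NAGS and ARG2 followed, with 59.9%, 57.3%, 45.7% and 43.1% of tested genes below them. CPS1 and OTC were far lower. No tested gene lay below either, which the filter of 1 FPKM in 3 or more libraries largely fixed in advance. Neighbours in this order overlapped between libraries, except that in both knockdown arms SLC25A15 was above ASL in all 3 libraries and CPS1 above OTC, that in shZMAT2-2 ARG1 was above ARG2, and that in every group the lowest of the 6 higher genes was above CPS1. ARG1 held the 5th place by mean in shZMAT2-1 and the 4th place in shZMAT2-2, against the 3rd place in the control. The plot of FPKM by library shows these levels for all 8 genes.

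**Figure D1:**
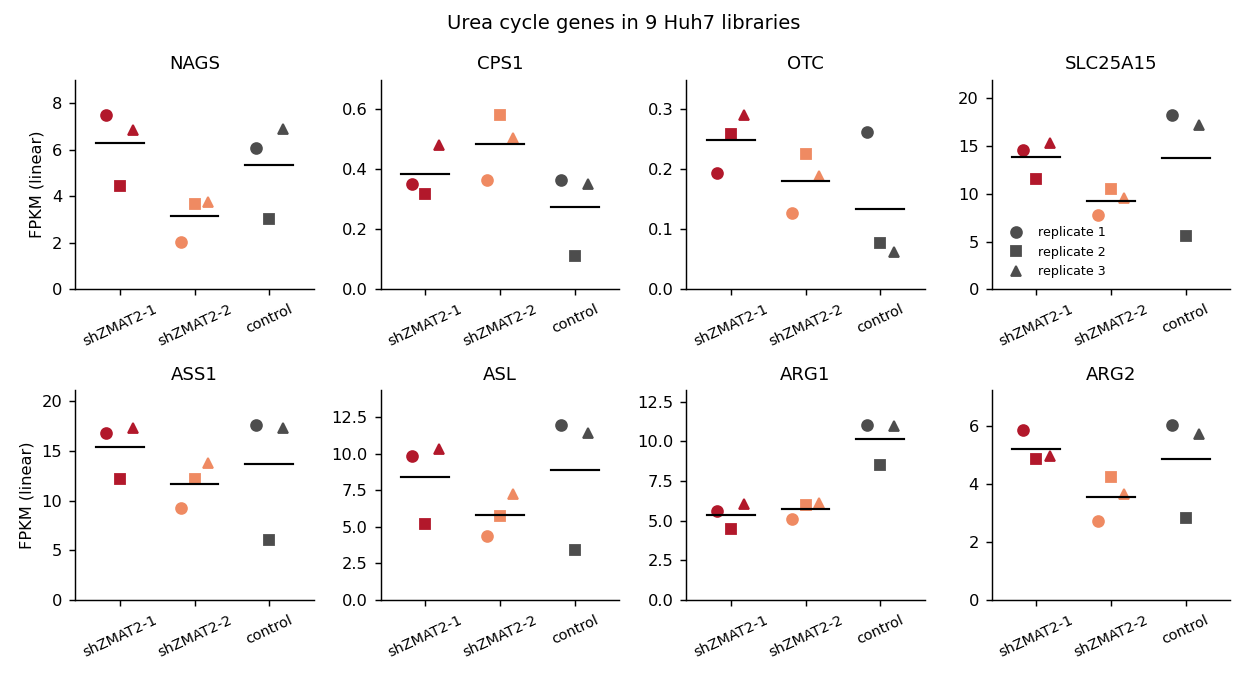
FPKM on a linear axis of the 8 urea cycle genes (1 panel each, from 0) in shZMAT2-1, shZMAT2-2 and control libraries. Points are libraries, with a symbol for each replicate number, and bars are group means. ARG1 is the panel in which all 6 knockdown libraries (4.45 to 6.10 FPKM) sit below all 3 control libraries (8.49 to 11.0 FPKM).

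ARG1 (ENSG00000118520, chromosome 6, 131470832 to 131584332, plus strand, positions as deposited, with no build named) is the cytosolic arginase that closes the cycle. Its level was 5.62, 4.45 and 6.05 FPKM in shZMAT2-1 and 5.08, 6.00 and 6.10 FPKM in shZMAT2-2, against 11.0, 8.49 and 10.9 FPKM in the control. All 6 knockdown libraries lay below all 3 control libraries, and the arms overlapped each other. Such a pattern was found in 1 of the 6 tested urea cycle genes, against 77 of all 11245 tested genes (0.685%). The arm means were 53.0% of the control mean in shZMAT2-1 and 56.5% in shZMAT2-2, and 49.0% and 52.2% of it without control replicate 2.

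On the log2(FPKM + 1) scale the ARG1 difference was -0.81 in shZMAT2-1 (SE 0.18, 95% interval -1.21 to -0.41, limma adjusted p = 0.193). In shZMAT2-2 it was -0.72 (SE 0.18, interval -1.12 to -0.32, adjusted p = 0.169), and for the mean of both arms -0.76 (SE 0.16, interval -1.11 to -0.42, adjusted p = 0.0792). No ARG1 contrast was called, where called means an adjusted p under 0.05. Between the arms the difference of shZMAT2-2 from shZMAT2-1 was 0.08 (interval -0.32 to 0.48, adjusted p = 0.849), which turned to -0.12 with TPM scaling. Both arms share the same control libraries, so their differences from the control are not independent of each other. The median of all tested genes was 0.16 in shZMAT2-1, 0.05 in shZMAT2-2 and 0.10 for the mean, and relative to it ARG1 stood at -0.96, -0.77 and -0.86. Whether replicates came from separate cultures is not stated in the labels, and the p-values therefore cover only how these samples vary, which may be technical. In bulk RNA, fewer cells with a transcript and less of it per cell cannot be told apart.

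The ARG1 call depended on how the libraries were scaled and on control replicate 2. Without that library the mean difference was -0.88 (adjusted p = 0.0173), in a fit that called 1.33% of all genes. With median-of-ratios scaling it was -0.87 (adjusted p = 0.00779, 1.89% of genes called), and with scaling on genes not encoded in mitochondria -0.87 (adjusted p = 0.00893, 1.6% called). With the mitochondrial share as a covariate it was -0.77 (adjusted p = 3.5e-04, 9.75% called). Without control replicate 2 and shZMAT2-1 replicate 2 together it was -0.82 (adjusted p = 0.00242, 4.1% called). It was not called with TPM scaling (-0.73, adjusted p = 0.9996), with the filter of 5 FPKM (-0.76, adjusted p = 0.111), with the replicate block (-0.76, adjusted p = 0.140), with a pseudocount of 0.1 (-0.86, adjusted p = 0.0808) or with no filter (-0.76, adjusted p = 0.0993). In shZMAT2-2 without control replicate 2, ASL (-0.92), SLC25A15 (-0.88) and NAGS (-0.87) were farther from 0 than ARG1 (-0.83). The control libraries left stood at 7.86% and 8.28% mitochondrial share and the shZMAT2-2 libraries at 14.5% to 27.0%. Arm and share cannot be told apart in that fit. With the mitochondrial covariate on all 9 libraries the values were -0.18, -0.17, -0.42 and -0.66 in the same order. The ARG1 estimate for the mean was negative in all fits, but leaving out a library other than control replicate 2 gave no call.

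The ARG1 row overlaps MED23, a Mediator subunit gene on the opposite strand (chromosome 6, 131573966 to 131628242). The libraries were strand-specific per the labels' protocols, but no source used here states whether counting used strand. MED23 read 3.18, 5.59 and 3.95 FPKM in shZMAT2-1 and 5.67, 6.57 and 4.25 FPKM in shZMAT2-2, against 5.00, 4.40 and 5.19 FPKM in the control. Its groups overlapped, and its mean difference was -0.03 (adjusted p = 0.9986), or -0.08 without control replicate 2 (adjusted p = 0.835). As deposited, the shared stretch runs from 131573966 to 131584332, the end of the ARG1 row. The RefSeq start window shown for ARG1 ends at 131573275, just before that stretch if the positions share a build. Reads of ARG1 and MED23 from the shared stretch cannot be told apart if strand was not used.

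Granulocytes also hold ARG1 in human blood, so their markers were read beside it. Of 8 granulocyte markers 3 had a row, and their summed level was 1.37 to 3.76 FPKM in shZMAT2-1 and 0.515 to 1.43 FPKM in shZMAT2-2, against 6.10 to 21.0 FPKM in the control. Nearly all of it was S100A9, a calcium-binding protein that tumour cells can also make, which fell in the mean of both arms (log2 fold change -2.34, limma adjusted p = 0.0196; -2.80 without control replicate 2, adjusted p = 0.00444). The other markers with a row, MPO and CEACAM8, stayed at or below 0.0368 and 0.0686 FPKM in every library, and the leukocyte antigen PTPRC at or below 0.0236 FPKM. Whether granulocyte RNA had a part in the ARG1 values was not tested.

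**Figure D2:**
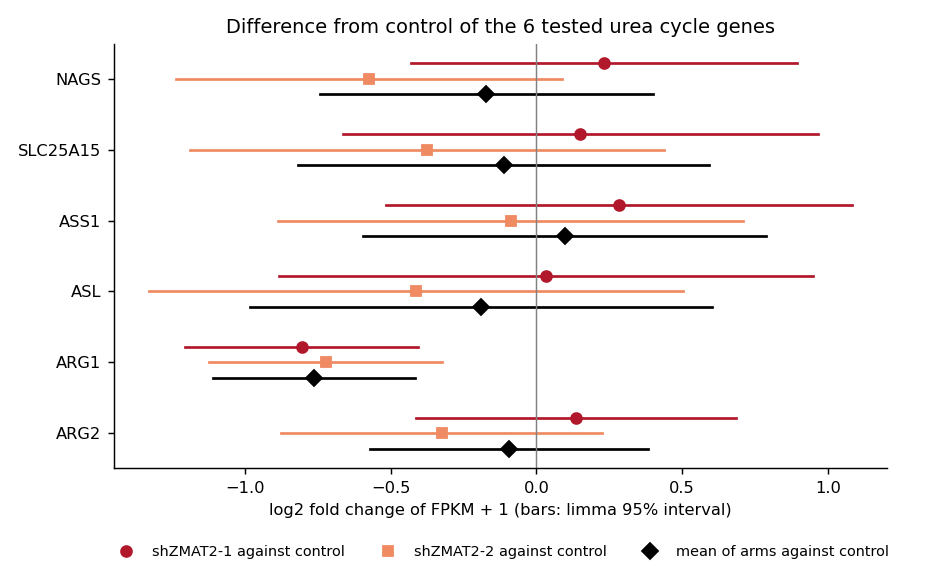
Log2 fold change of FPKM + 1 over control (x axis) for the 6 tested urea cycle genes (rows), in shZMAT2-1, in shZMAT2-2 and for the mean of both arms; bars are limma 95% intervals. The 3 ARG1 intervals lie below 0, and all intervals of the other 5 genes span 0.

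Of the 8 urea cycle genes 6 passed the filter on low values, and none of these 6 was called in any contrast. The fits called 0.08% of all tested genes in shZMAT2-1, 0.587% in shZMAT2-2, 0.542% for the mean of the arms and 0% between the arms. At an unadjusted limma p under 0.05, 1 of 6 passed in each contrast, against 5.76%, 7%, 6.93% and 4.14% of all genes: ARG1 against the control in each arm and the mean, and NAGS between the arms. The estimate was above 0 in 5 of 6 genes in shZMAT2-1, 0 of 6 in shZMAT2-2 and 1 of 6 for the mean. Over all tested genes the shares above 0 were 72.9%, 58.4% and 71.8%. The median log2 fold changes of the 6 genes were 0.14, -0.40 and -0.14, beside 0.16, 0.05 and 0.10 over all tested genes. Without control replicate 2 the mean of the arms differed from the control by -0.88 in ARG1, -0.70 in ASL, -0.61 in SLC25A15, -0.47 in NAGS, -0.38 in ARG2 and -0.37 in ASS1, where the median of all genes was -0.11. All 6 estimates were then below 0, and ARG1 was the 1 called, where 1.33% of all tested genes were called. Control replicate 2 was the lowest control library in all 6 genes, so leaving it out lowers each of these estimates. The share of all tested genes below 0 in this fit was not counted.

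In the mitochondrial part of the cycle, NAGS (ENSG00000161653, chromosome 17, 44004622 to 44009068) read 7.51, 4.45 and 6.87 FPKM in shZMAT2-1 and 2.05, 3.67 and 3.77 FPKM in shZMAT2-2, against 6.08, 3.04 and 6.88 FPKM in the control. Every shZMAT2-2 library was below every shZMAT2-1 library, while both arms overlapped the control. The difference of shZMAT2-2 from shZMAT2-1 was -0.81 (interval -1.47 to -0.15, limma adjusted p = 0.657), and the mean of the arms differed from the control by -0.17 (interval -0.74 to 0.40).

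SLC25A15 (ENSG00000102743, chromosome 13, 40789412 to 40812460), the mitochondrial ornithine carrier, read 14.6, 11.5 and 15.3 FPKM in shZMAT2-1 and 7.74, 10.5 and 9.58 FPKM in shZMAT2-2, against 18.3, 5.62 and 17.2 FPKM in the control. Control replicate 2 was the lowest of the 9 libraries and the other control libraries the highest, so the control enclosed both arms. The differences from the control were 0.15 in shZMAT2-1, which turned to -0.07 with scaling on genes not encoded in mitochondria, and -0.38 in shZMAT2-2. The mean of the arms differed by -0.11 (interval -0.82 to 0.59). Without control replicate 2 the shZMAT2-2 difference was -0.88 (limma adjusted p = 0.0358). That fit called 270 of 11245 tested genes in shZMAT2-2, with a median difference of -0.15. The control libraries left stood at 7.86% and 8.28% mitochondrial share and the shZMAT2-2 libraries at 14.5% to 27.0%. Arm and share cannot be told apart there. With the mitochondrial covariate on all 9 libraries the difference was -0.17 (limma adjusted p = 0.304).

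CPS1, which makes carbamoyl phosphate, and OTC, which uses it, did not pass the filter on low values and were fitted only with no filter. CPS1 (ENSG00000021826, chromosome 2, 210477682 to 210679107) read 0.350, 0.317 and 0.480 FPKM in shZMAT2-1 and 0.363, 0.581 and 0.503 FPKM in shZMAT2-2, against 0.365, 0.111 and 0.349 FPKM in the control. The values correspond to 71, 80 and 108 fragments in shZMAT2-1 and 93, 152 and 122 fragments in shZMAT2-2, against 82, 28 and 74 fragments in the control. The groups overlapped, and the fit with no filter gave 0.17 for the mean of the arms (interval -0.031 to 0.37, limma adjusted p = 0.802).

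OTC (ENSG00000036473, chromosome X, 38352586 to 38421446) read 0.193, 0.260 and 0.291 FPKM in shZMAT2-1 and 0.128, 0.225 and 0.189 FPKM in shZMAT2-2, against 0.262, 0.0779 and 0.0618 FPKM in the control. These were 6, 10 and 10 fragments in shZMAT2-1 and 5, 9 and 7 fragments in shZMAT2-2, against 9, 3 and 2 fragments in the control. The groups overlapped, and the fit with no filter gave 0.10 for the mean of the arms (interval -0.039 to 0.24, limma adjusted p = 0.872), which was not detectable as a difference at this depth. The fragment counts of CPS1 and OTC rest on exon lengths of 11019 and 1683 bases, which were fitted and not taken from an annotation. Each length was chosen so that all 9 values came out as whole fragments, here within 0.027 and 0.002. Wholeness is therefore no check of these counts.

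In the cytosol, ASS1 (ENSG00000130707, chromosome 9, 130444961 to 130501274), which makes argininosuccinate, read 16.8, 12.2 and 17.3 FPKM in shZMAT2-1 and 9.24, 12.1 and 13.8 FPKM in shZMAT2-2, against 17.6, 6.01 and 17.4 FPKM in the control. The groups overlapped, with control replicate 2 the lowest of the 9. The mean of the arms differed from the control by 0.10 (interval -0.60 to 0.79), which turned to -0.0041 with median-of-ratios scaling and -0.0040 with scaling on genes not encoded in mitochondria.

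ASL (ENSG00000126522, chromosome 7, 66075800 to 66094697), which splits argininosuccinate, read 9.81, 5.18 and 10.3 FPKM in shZMAT2-1 and 4.37, 5.71 and 7.27 FPKM in shZMAT2-2, against 11.9, 3.39 and 11.4 FPKM in the control. The groups overlapped here too, and control replicate 2 was again the lowest. The mean difference was -0.19 (interval -0.98 to 0.60), and the shZMAT2-1 estimate of 0.03 turned to -0.10 with median-of-ratios scaling and -0.17 with scaling on genes not encoded in mitochondria.

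ARG2 (ENSG00000081181, chromosome 14, 67619920 to 67651708), the mitochondrial arginase, read 5.84, 4.84 and 4.95 FPKM in shZMAT2-1 and 2.73, 4.24 and 3.66 FPKM in shZMAT2-2, against 6.01, 2.81 and 5.71 FPKM in the control. All shZMAT2-2 libraries were below all shZMAT2-1 libraries, and the control overlapped both. The mean of the arms differed by -0.10 (interval -0.57 to 0.38, limma adjusted p = 0.9986), and shZMAT2-2 differed from shZMAT2-1 by -0.46 (interval -1.01 to 0.09). Its row overlaps VTI1B on the opposite strand, at 6.37 to 11.0 FPKM. ARG2, NAGS and SLC25A15 were thus 3 of 6 tested genes with all shZMAT2-2 libraries below all shZMAT2-1 libraries, a pattern found in 1043 of 11245 genes (9.28%).

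A further fit left out control replicate 2 and shZMAT2-1 replicate 2, the libraries with the highest mitochondrial share in those 2 groups. In it, 6 of 6 genes were called lower in shZMAT2-2 than in the control. Of all 11245 tested genes, 30.2% were called in either direction and 2637 were called lower. In that fit the differences ran from -0.92 in ASL to -0.56 in ASS1 (limma adjusted p of 0.00355 and 0.0215). Between shZMAT2-2 and shZMAT2-1, 5 of 6 were called (all but ARG1), against 42.3% of all genes. Against the control, shZMAT2-1 gave 1 of 6 (ARG1, 1.24% of all genes) and the mean of the arms 2 of 6 (ARG1 and SLC25A15, 4.1%). This fit kept shZMAT2-2 replicate 1, so the shZMAT2-2 libraries stood at 14.5% to 27.0% mitochondrial share and the remaining libraries of the other groups at 7.70% to 8.28%. In it, the shZMAT2-2 arm and the mitochondrial share cannot be told apart.

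In each group all 6 tested genes averaged less in the library with the highest mitochondrial share than in the other two, while the order of the other two did not always follow the share. In the control, replicate 2 over the mean of replicates 1 and 3 was 0.291 for ASL, 0.317 for SLC25A15, 0.344 for ASS1, 0.469 for NAGS and 0.480 for ARG2, against 0.774 for ARG1 and a median of 0.566 over all tested genes. In shZMAT2-1, replicate 2 over the other two ranged from 0.515 for ASL to 0.896 for ARG2, with 0.762 for ARG1 and a median of 0.934. In shZMAT2-2, replicate 1 over the other two ranged from 0.551 for NAGS to 0.772 for SLC25A15, with 0.840 for ARG1 and a median of 0.841. In control replicate 2, then, the ARG1 ratio was above the median of all genes and the other 5 ratios were below it. With the mitochondrial covariate none of these 5 genes was called in any contrast.

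**Figure D3:**
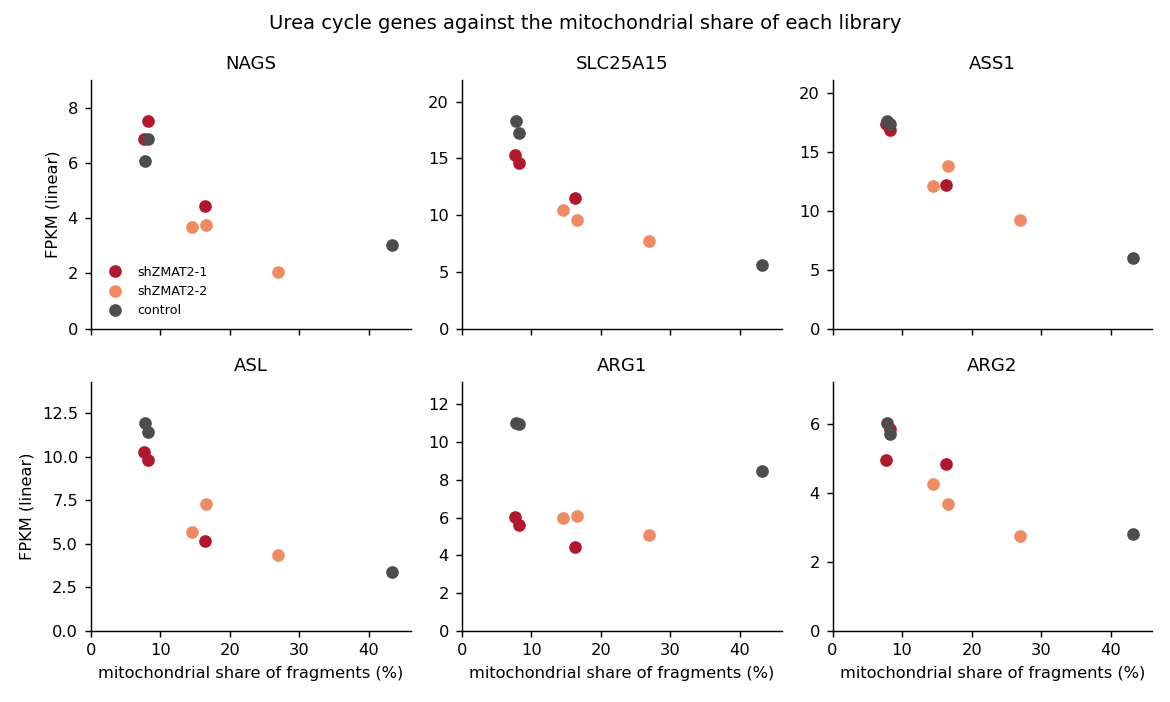
FPKM of the 6 tested urea cycle genes (y axes, linear, from 0) against the percentage of fragments from the 13 mitochondrially encoded genes (x axis), 1 point per library, coloured by group. In NAGS, SLC25A15, ASS1, ASL and ARG2 the library at 43.2% is at or near the bottom; in ARG1 the 3 control libraries are the highest of the 9.

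Set against its own pathway within a library, ARG1 was lowest in shZMAT2-1. The ratio of ARG1 to ARG2 was 0.962, 0.919 and 1.22 in shZMAT2-1 and 1.86, 1.41 and 1.67 in shZMAT2-2, against 1.83, 3.02 and 1.92 in the control. All shZMAT2-1 ratios were below those of both other groups, and shZMAT2-2 overlapped the control through its replicate 1. Against the geometric mean of ARG2, ASS1, ASL, NAGS and SLC25A15, ARG1 gave ratios of 0.556, 0.645 and 0.614 in shZMAT2-1 and 1.14, 0.927 and 0.915 in shZMAT2-2, against 1.03, 2.14 and 1.03 in the control. Here too shZMAT2-1 stood below both other groups and shZMAT2-2 overlapped the control. ARG1 itself overlapped between the arms, while ARG2, NAGS and SLC25A15 did not. A ratio shows unequal change and not which gene changed.

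**Figure D4:**
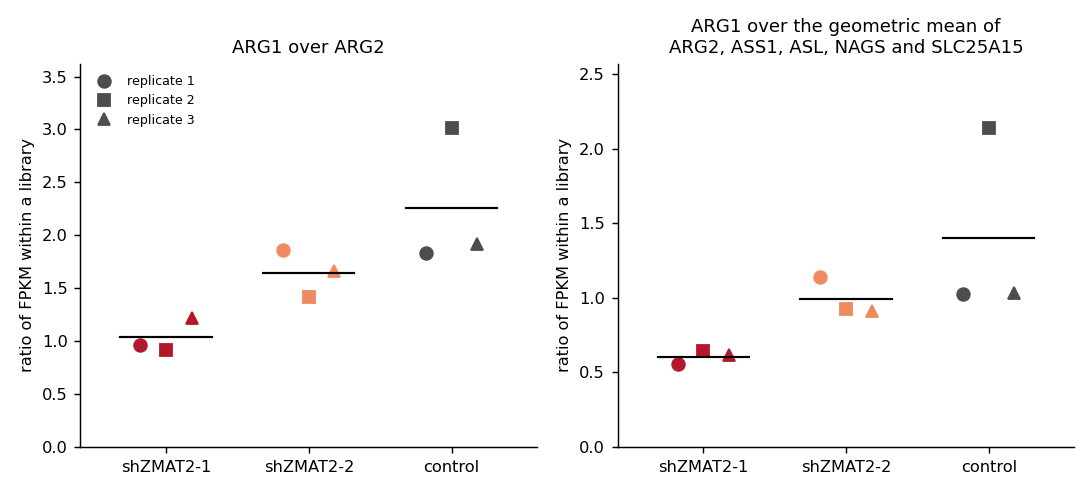
Ratio of ARG1 FPKM to ARG2 FPKM (left) and to the geometric mean of 5 other urea cycle genes (right) in each library of shZMAT2-1, shZMAT2-2 and control; bars are group means and axes start at 0. The shZMAT2-1 ratios (0.919 to 1.22 and 0.556 to 0.645) are the lowest in both panels, and control replicate 2 is the highest.

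As a share of the summed FPKM of all 8 genes, ARG1 made up 9.25%, 10.3% and 9.83% in shZMAT2-1 and 16.0%, 13.9% and 13.6% in shZMAT2-2, against 15.4%, 28.7% and 15.6% in the control. The sum itself was 60.8, 43.2 and 61.5 FPKM in shZMAT2-1 and 31.7, 43.1 and 44.9 FPKM in shZMAT2-2, against 71.5, 29.6 and 69.9 FPKM in the control. Control replicate 2 had the lowest sum and the highest ARG1 share of the 9 libraries.

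Likeness to other genes was read from Pearson's r over the 9 libraries among 6369 protein-coding genes of at least 5 FPKM in a group, as a description of libraries that share groups and mitochondrial share. The genes most like ARG1 were SUFU, a negative regulator of Hedgehog signalling (r of 0.977), HTRA3, a secreted serine protease (0.967), and COTL1, an actin-binding protein (0.960). SUFU read 3.43, 3.12 and 3.87 FPKM in shZMAT2-1 and 3.23, 3.58 and 3.32 FPKM in shZMAT2-2, against 5.98, 4.70 and 5.46 FPKM in the control. In SUFU, HTRA3 and COTL1 alike, the knockdown libraries were all below the control, a likeness that the choice by r favours. Each of these genes reached 5 FPKM as a group mean only in the control, and so became a candidate only through that group. The other urea cycle genes had different nearest genes: WIPI2 for ASS1 (0.998), OBSL1 for ASL (0.996), IARS2 for SLC25A15 (0.995), MASP1 for ARG2 (0.981) and ARHGEF1 for NAGS (0.979). Between pairs of those 5 genes r was 0.829 to 0.954, and between ARG1 and each of them 0.181 to 0.443. With the log2 mitochondrial share of the libraries, r was -0.978 to -0.893 for those 5 genes and -0.245 for ARG1. What lies behind these r values was not tested.

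The reactions that feed the cycle and draw on it were read from a list of 74 genes in 8 roles, of which 73 had a row and 59 were tested. None of the 59 was called in either arm or in the mean of the arms (limma). At an unadjusted p under 0.05, 6 passed in shZMAT2-1 (10.2%), 3 in shZMAT2-2 (5.09%) and 3 for the mean of the arms (5.09%), beside 5.76%, 7% and 6.93% of all tested genes. The median log2 fold change of the mean was 0.09, as it was 0.10 over all tested genes, with 39 of 59 estimates (66.1%) above 0, beside 71.8% of all genes. In shZMAT2-1 and shZMAT2-2 the shares above 0 were 69.5% and 45.8%, beside 72.9% and 58.4% of all genes.

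Transport across the plasma membrane held the lowest adjusted p of the list. In it, 7 of 9 estimates were above 0 in shZMAT2-1, 6 of 9 in shZMAT2-2 and 8 of 9 for the mean of the arms. Over all tested genes the shares above 0 were 72.9%, 58.4% and 71.8%. SLC38A3, the glutamine transporter of hepatocytes, read 18.6, 20.9 and 20.1 FPKM in shZMAT2-1 and 24.6, 20.5 and 25.1 FPKM in shZMAT2-2, against 12.7, 13.3 and 13.6 FPKM in the control. SLC7A7, a subunit of the exporter of arginine and ornithine, read 1.95, 1.33 and 1.78 FPKM in shZMAT2-1 and 1.23, 1.64 and 1.43 FPKM in shZMAT2-2, against 1.15, 0.472 and 0.968 FPKM in the control. In both genes all 6 knockdown libraries lay above the control, as in 4.69% of all tested genes. The mean differences were 0.67 for SLC38A3 (interval 0.34 to 0.99, adjusted p = 0.103) and 0.47 for SLC7A7 (interval 0.14 to 0.80, adjusted p = 0.343). Without control replicate 2, SLC38A3 gave 0.68 (adjusted p = 0.0371) and SLC7A7 0.31 (adjusted p = 0.267).

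Among 14 tested transcription factors and signals, KLF15, a regulator of amino acid breakdown in liver, had the lowest adjusted p. It read 4.86, 3.66 and 4.89 FPKM in shZMAT2-1 and 2.45, 3.34 and 3.78 FPKM in shZMAT2-2, against 9.29, 4.40 and 9.38 FPKM in the control. The shZMAT2-2 libraries were all below the control, and shZMAT2-1 overlapped it through control replicate 2. Its mean difference was -0.81 (interval -1.32 to -0.30, limma adjusted p = 0.263), and without control replicate 2 it was -1.12 (adjusted p = 0.0115). PPARA, a nuclear receptor of the fasting liver, differed by -0.22 (adjusted p = 0.903), or -0.36 without control replicate 2.

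In the remaining roles no mean difference had an unadjusted p under 0.05. GLUD1, which releases ammonia from glutamate, averaged 28.6 ± 2.74 FPKM in shZMAT2-1 and 23.0 ± 2.50 FPKM in shZMAT2-2, against 18.7 ± 7.46 FPKM in the control (SD, n = 3 each). Its mean difference was 0.51 (limma adjusted p = 0.810), or 0.14 without control replicate 2, and that of the alanine aminotransferase GPT2 was -0.32, or -0.65. Of 13 tested enzymes of ornithine, proline and polyamines, 7 estimates were above 0 for the mean, beside 71.8% of all tested genes. Among the 7 were the spermidine synthase SRM at 0.44 (0.25 without that library) and the antizyme inhibitor AZIN1 at 0.40 (0.15). The 4 genes linking fumarate and aspartate had 4 estimates above 0 in shZMAT2-1, 1 in shZMAT2-2 and 4 for the mean. The shares over all tested genes were 72.9%, 58.4% and 71.8%. Of these 4 genes MDH2, the mitochondrial malate dehydrogenase, stood at 0.42 for the mean (0.19 without control replicate 2) and NIT2 at 0.09 (-0.25). Several of these genes had estimates of opposite sign in the arms. AGMAT, of agmatine metabolism, was 0.83 in shZMAT2-1 and -0.17 in shZMAT2-2, and the glutamate carrier SLC25A22 0.58 and -0.09. The mitochondrial carbonic anhydrase CA5A, which supplies bicarbonate to CPS1, was 0.25 in shZMAT2-1 and -0.54 in shZMAT2-2. The deacetylase SIRT3 was 0.23 and -0.04, and NIT2 0.38 and -0.19. Their means were 0.33 for AGMAT, 0.24 for SLC25A22, -0.14 for CA5A and 0.10 for SIRT3, and without control replicate 2 they were -0.28, -0.18, -0.59 and -0.14. The aspartate and glutamate carrier SLC25A13 and the creatine enzyme GATM had means of 0.25 and 0.13, or -0.03 and -0.15 without that library.

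**Figure D5:**
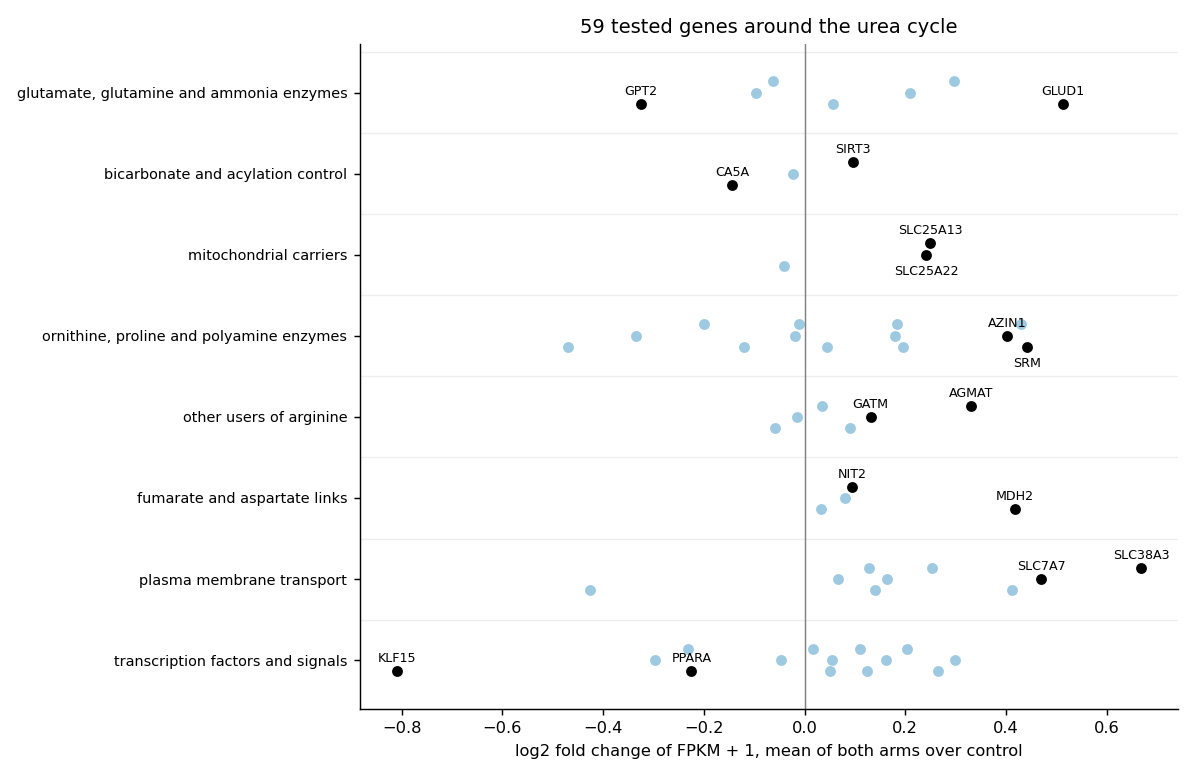
Log2 fold change of FPKM + 1, mean of both knockdown arms over control (x axis), of the 59 tested genes around the urea cycle, by role (rows); points are genes, and the genes described in the text are black and named. SLC38A3 (0.67) and KLF15 (-0.81) are the farthest from 0 on either side, and no gene was called.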

How the data were processed

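RNA of 9 Huh7 libraries was measured by poly(A), strand-specific (dUTP) sequencing, per the labels' protocols. The table deposited by the authors holds FPKM for 27421 genes. The submitters' processing notes name HISAT, featureCounts and DESeq2 and give no versions. Neither build nor annotation is given in the sources used here; gene positions are as deposited. Depth was recovered from 1527 single-exon genes: 100% of their 799 to 927 values per library came out as whole fragments within 0.1; intervals would cover counting error only.

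limma 3.58.1 in R 4.3.3, with trend, was fitted to log2(FPKM + 1) of the 11245 genes that reached 1 FPKM in 3 or more libraries, on all 9 libraries with the group as the only term. This scale understates the change of low genes. p-values are two-sided and Benjamini-Hochberg adjusted over all tested genes, called under 0.05. The procedure was tested on simulated data. Alternatives were a pseudocount of 0.1, no filter, a filter of 5 FPKM, TPM, median-of-ratios scaling, scaling on genes not encoded in mitochondria, a mitochondrial covariate (log2 of the summed FPKM of the 13 genes), a replicate block, only the groups compared, and leaving out libraries. Named genes are the 8 urea cycle genes, the 2 smallest adjusted p per role of the nitrogen list, and the 3 most alike genes by r, of which only the first is printed for genes other than ARG1. The markers S100A9, LYZ, CD14 and VIL1 and the overlapping genes MED23 and VTI1B were named outside that rule, after their values were seen. The members, the lists, the marker genes and the tests were chosen with earlier results of these data known. Start regions are from RefSeq on GRCh38.p14, where 8 of 8 genes matched, and transcript GC content from GENCODE 29. Other steps used Python 3.11.15 with pandas 2.3.3, numpy 2.4.6 and matplotlib 3.10.9.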

Additional observations from a re-analysis of the deposited data

How the results depend on the processing

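Against the control, the number of urea cycle genes called (0 of 6 as reported) was 1 (ARG1) in shZMAT2-1, in shZMAT2-2 and in the mean of the arms with median-of-ratios scaling, with scaling on genes not encoded in mitochondria and with the mitochondrial covariate. Other scalings, pseudocounts, filters and the fit on only the groups compared kept it at 0. Leaving out single libraries, or control replicate 2 and shZMAT2-1 replicate 2 together, gave 0 to 1 in shZMAT2-1, 0 to 6 in shZMAT2-2, 0 to 2 for the mean and 0 to 5 between the arms. The count of 2 for shZMAT2-2 without control replicate 2 was ARG1 and SLC25A15, in a fit that called 270 of 11245 tested genes. In that fit too, the shZMAT2-2 arm and the mitochondrial share cannot be told apart. ARG1 in the mean of the arms was -0.87 with either of the first 2 scalings, -0.77 with the covariate, and -0.88 to -0.71 with libraries left out (adjusted p from 0.0173 without control replicate 2 to 0.334 singly, and 0.00242 without the pair). Of the nitrogen list, 0 as reported, 1 (KLF15) was called in shZMAT2-2 and the mean with median-of-ratios scaling and 1 (KLF15 again) in each contrast against the control with scaling on genes not encoded in mitochondria. With the covariate 6, 10 and 10 of 59 were called in shZMAT2-1, shZMAT2-2 and the mean, beside 419, 1107 and 1096 of all 11245 tested genes. With libraries left out the counts were 0 to 1, 0 to 26 and 0 to 7. The highest counts came without the pair of libraries, where 1.24%, 30.2% and 4.1% of all tested genes were called. In that fit the shZMAT2-2 arm and the mitochondrial share cannot be told apart.

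Over all genes the counts were 9, 66 and 61 in shZMAT2-1, shZMAT2-2 and the mean as reported. They were 77, 191 and 213 with median-of-ratios scaling, 55, 161 and 180 with scaling on genes not encoded in mitochondria, 419, 1107 and 1096 with the covariate, 4, 15 and 25 with the filter of 5 FPKM, and 0, 0 and 1 with TPM. On only the groups compared they were 0 and 0. Without the pair of libraries they were 140, 3396 and 461, and 4761 between the arms, where 0 were called as reported and 465 had an unadjusted p under 0.05. Leaving out 1 library gave 0 to 33, 0 to 270 and 6 to 150. For the mean, 51 were higher and 10 lower as reported, 147 and 66 with median-of-ratios scaling, 128 and 52 with scaling on genes not encoded in mitochondria, 75 and 75 without control replicate 2, and 196 and 265 without the pair.

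Some directions turned, all of them in estimates that were not called as reported. With TPM scaling ARG1 between the arms was -0.12, where the median of all genes was -0.31; ARG1 relative to that median in the mean was -0.93, against -0.86 as reported. With scaling on genes not encoded in mitochondria ARG2, ASL and SLC25A15 in shZMAT2-1 were -0.056, -0.17 and -0.066, and ASS1 in the mean -0.0040. With median-of-ratios scaling ASL in shZMAT2-1 was -0.10 and ASS1 in the mean -0.0041. With the covariate ARG2, ASL and SLC25A15 in shZMAT2-1 were -0.023, -0.27 and -0.12, ASS1 in shZMAT2-2 was 0.11, and ASS1 and ASL between the arms were 0.089 and 0.092. With libraries left out, ARG1 between the arms was -0.026 to 0.16. In shZMAT2-1, ARG2 was -0.15 to 0.29, ASS1 -0.18 to 0.52, ASL -0.48 to 0.31, NAGS -0.063 to 0.43 and SLC25A15 -0.35 to 0.42. ASS1 in shZMAT2-2 was -0.56 to 0.15. In the mean, ARG2 was -0.38 to 0.062, ASS1 -0.37 to 0.33, ASL -0.70 to 0.078, NAGS -0.47 to 0.015 and SLC25A15 -0.61 to 0.16. There, AGMAT was -0.28 to 0.66, CA5A -0.59 to 0.10, GATM -0.15 to 0.30, NIT2 -0.25 to 0.27, SIRT3 -0.14 to 0.29, SLC25A13 -0.027 to 0.40 and SLC25A22 -0.18 to 0.46. The cause of these turns was not tested.

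The labels do not state whether replicate numbers pair the samples. Correlations of deviations between same-numbered libraries ran from -0.763 to 0.777, and shZMAT2-1 replicate 1 was closest to shZMAT2-2 replicate 3 (0.751). The highest between groups, 0.808, joined shZMAT2-2 replicate 1 and control replicate 2, each highest in mitochondrial share within its group. The correlations cannot decide on pairing, because a library that stands apart shapes all deviations in its group. With the replicate block ARG1 in the mean was -0.76 (adjusted p = 0.140), no urea cycle gene was called, and the counts over all genes were 13, 52 and 58. With 3 libraries a group, the limma 95% intervals of the 5 genes other than ARG1 against the control reached from -1.33 (ASL in shZMAT2-2) to 1.08 (ASS1 in shZMAT2-1).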

Other observations

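The longest protein-coding transcripts of the urea cycle genes differ in base composition. The share of G and C bases was 41.1% in OTC, 42.4% in ARG1, 43.8% in CPS1, 47.1% in ARG2, 49.9% in SLC25A15, 57.4% in ASS1, 59.4% in ASL and 63.8% in NAGS. The median was 48.4% over 10262 tested genes with a value (91.3% of those tested). Across these genes, which are not independent replicates, the log2 ratio of control replicate 2 to the other control libraries ran against the share of G and C bases, with Spearman's rho of -0.346 and Pearson's r of -0.316. This is a description of these libraries, and its part in the urea cycle values was not tested.

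The deposited ARG1 row starts at position 131470832 of chromosome 6, upstream of the RefSeq start window shown for ARG1. Which exons gave the fragments of that row is not analysed here.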
